A study of Mus musculus with 9 samples.

Results

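Bulk RNA sequencing of mouse aorta was used to compare mice given the phorbol ester TPA on top of β-aminopropionitrile (BAPN) with mice given BAPN alone. The 4 libraries were taken by their treatment label, 2 for BAPN and 2 for BAPN with TPA, from 9 libraries in all. The other 5 libraries were 2 from normal mice, 2 from mice given BAPN with the AP-1 inhibitor T-5224 and 1 labelled co110. The label co110 is read here as coenzyme Q10 on top of BAPN. All 5 entered the expression filter and the scalings computed across libraries, and some of their values are given for reference. The normal and T-5224 libraries also entered the estimate of the spread, to which a single coenzyme Q10 library adds nothing. Both T-5224 libraries carry a duration in their titles, 2 weeks for one and 3 weeks for the other, so they may differ in length of treatment, and any such difference would enter that spread. All mice were C57BL/6J. Both groups compared received BAPN at 1 g/kg/day, and the TPA group also received daily intraperitoneal injections of TPA at 50 ng/g/day from day 1 until the mice were killed on day 28. The protocol gives 12 mice to a group, but its total does not cover all 5 treatments, so the number of mice behind each library is uncertain. The sources used here do not say which mice gave each library, how old they were, whether both sexes were used, whether animals were pooled, or whether the BAPN group had vehicle injections. TPA is called an AP-1 activator in the labels, after the transcription factor of that name, so the comparison asks what such an activator adds in aorta already exposed to BAPN.

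BAPN blocks the lysyl oxidases, the enzymes that cross-link elastin and collagen, and a growing mouse given it can develop aortic dissection. TPA mimics diacylglycerol, the lipid second messenger, and so activates protein kinase C and other proteins with the same binding domain. Downstream of protein kinase C, AP-1 dimers of Fos, Jun and ATF family proteins bind short palindromic DNA sites, and NF-kB is also switched on. In skin, repeated TPA causes inflammation and thickening of the epidermis.

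Expression was measured in FPKM (fragments scaled by transcript length and by the size of the library), and differences are given as TPA plus BAPN minus BAPN on the scale of log2(FPKM + 1), which understates the change of genes near 0. A gene passed when the adjusted p of limma was under 0.05. The 9-library fit estimated the spread from the treatments with 2 libraries each, since a single coenzyme Q10 library gives no spread. A 4-library fit estimated the spread from BAPN and TPA alone. Replicates were not said to come from separate animals, so p-values measure the spread between these samples, which may be technical. With 2 libraries a group, an exact two-sided permutation test of a single gene cannot go below 0.333, so none was used for calls.

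Contractile smooth muscle genes were present in every library. Acta2, smooth muscle actin, was at 745 and 246 FPKM in the BAPN libraries and at 1078 and 1421 in the TPA libraries. Myh11, smooth muscle myosin, was at 75.5 and 50.1 with BAPN and at 185 and 269 with TPA. Both groups were rich in blood, with haemoglobin genes at 68.9% and 74.1% of summed FPKM for BAPN and at 69.4% and 69.2% for TPA, against 1.25% and 1.03% for normal aorta. Libraries of 1 group correlated at 0.94 (BAPN) and 0.97 (TPA) over the tested genes, and libraries of different groups at 0.85 to 0.89. The number of genes listed above 0 was 14682 and 15392 with BAPN and 16204 and 16054 with TPA. Read counts are unknown, so depth was judged from genes of low FPKM, taken to stand on equal small counts in both libraries compared. By the inverse of their most common FPKM ratio, BAPN replicate 1 was at 0.859 times the depth of BAPN replicate 2. TPA replicates 1 and 2 were at 1.13 and 0.933 times the depth of BAPN replicate 2.

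Of 12997 genes tested, 5 passed in the 9-library fit. Il6 and Csf3, which encode secreted signals of acute inflammation, fell with TPA (0.0154% of the genes tested). Krt13, Mt4 and Krtdap, genes of stratified squamous epithelium, rose with TPA (0.0231%). The count was 0 without BAPN replicate 1 or 2 or TPA replicate 1 or 2, 1 and 2 without T-5224 replicate 1 or 2, and 8 and 9 without normal replicate 1 or 2. With the T-5224 libraries as separate groups, a fit added after the data were seen, 1 gene passed, Mt4. All 5 also passed in the 4-library fit, in which 702 genes were higher (5.40%) and 270 lower (2.08%) with TPA. Without overlap between the groups, 5377 genes were higher (41.4%) and 2753 lower (21.2%) in both TPA libraries. The median difference of all tested genes was 0.18 as deposited, 0.01 after median-of-ratios scaling, 0.33 after rescaling to TPM, 0.30 with haemoglobin left out of the sum and -0.02 after quantile normalization, and medians of gene groups are to be read against it.

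**Figure D1:**
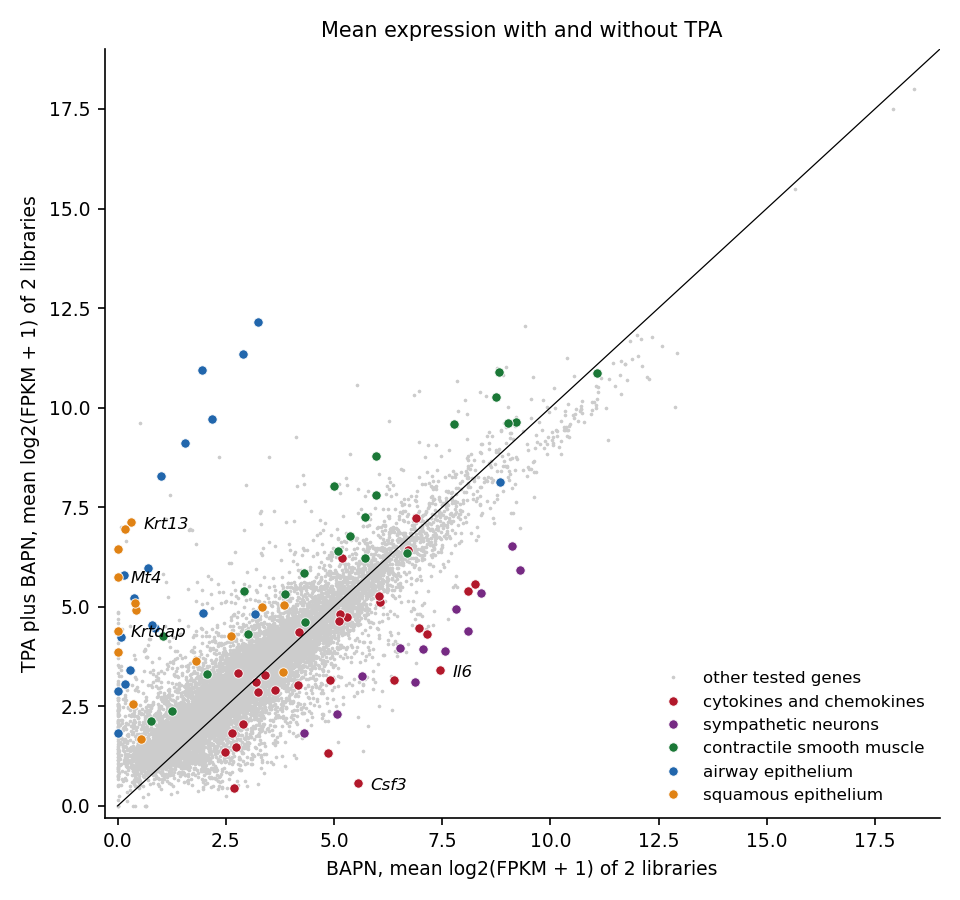
Mean log2(FPKM + 1) of the 2 BAPN libraries (horizontal axis) and of the 2 TPA libraries (vertical axis) for each tested gene, with 5 gene lists coloured, the 5 genes that passed in the 9-library fit named and the line of equal expression drawn. Il6 and Csf3 lie below the line among the cytokines, and Krt13, Mt4 and Krtdap lie near the left edge, where many squamous and airway genes lie at or near 0 in the BAPN libraries.

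The DNA just upstream of 6 named genes is shown because AP-1, the factor that TPA is used to activate, and NF-kB act through short sites in such regions. Each stretch holds the 250 bases before the first start that RefSeq lists on GRCm38.p6, read along the strand of the gene. Capitals mark matches on either strand to the AP-1 motif TGANTCA, the cAMP response element TGACGTCA or the NF-kB consensus. The genes are the first 6, by p, among the named genes with a match.
Il6: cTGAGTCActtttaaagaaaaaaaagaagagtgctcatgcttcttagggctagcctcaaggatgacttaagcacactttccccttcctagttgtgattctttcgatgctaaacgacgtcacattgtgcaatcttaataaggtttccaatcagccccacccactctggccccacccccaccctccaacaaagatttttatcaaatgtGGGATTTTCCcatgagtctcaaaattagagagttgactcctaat
Cxcl1: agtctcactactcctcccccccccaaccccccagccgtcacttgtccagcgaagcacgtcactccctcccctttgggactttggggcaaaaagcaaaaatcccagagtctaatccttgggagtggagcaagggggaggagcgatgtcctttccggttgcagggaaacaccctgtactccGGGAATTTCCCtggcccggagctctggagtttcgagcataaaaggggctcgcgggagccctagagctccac
Cxcl2: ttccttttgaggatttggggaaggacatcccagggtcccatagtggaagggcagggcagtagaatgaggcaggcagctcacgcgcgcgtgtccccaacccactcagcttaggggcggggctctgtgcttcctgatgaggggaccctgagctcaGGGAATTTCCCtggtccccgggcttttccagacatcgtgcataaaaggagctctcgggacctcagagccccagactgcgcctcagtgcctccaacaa
Cxcl3: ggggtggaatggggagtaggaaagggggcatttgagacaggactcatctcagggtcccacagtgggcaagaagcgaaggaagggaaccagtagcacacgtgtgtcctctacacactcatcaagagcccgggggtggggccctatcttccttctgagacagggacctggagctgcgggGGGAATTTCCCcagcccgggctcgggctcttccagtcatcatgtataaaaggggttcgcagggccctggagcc
Krt13: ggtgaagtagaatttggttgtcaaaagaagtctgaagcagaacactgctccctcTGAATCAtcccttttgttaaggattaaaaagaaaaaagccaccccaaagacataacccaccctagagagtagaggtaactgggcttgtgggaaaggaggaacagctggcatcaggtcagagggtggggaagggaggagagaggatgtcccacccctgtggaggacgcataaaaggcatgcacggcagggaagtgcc
Krtdap: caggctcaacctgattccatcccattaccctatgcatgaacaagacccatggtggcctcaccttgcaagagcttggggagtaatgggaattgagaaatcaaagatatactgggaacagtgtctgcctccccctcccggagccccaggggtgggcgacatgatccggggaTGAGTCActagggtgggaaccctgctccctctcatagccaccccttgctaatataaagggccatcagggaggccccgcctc
Il6 lies on the plus strand (window chr5:30012864-30013113) and had 1 AP-1 match, beginning 249 bases before the start, and 1 NF-kB match, beginning 44 bases before it. The chemokine genes Cxcl1 (chr5:90890995-90891244), Cxcl2 (chr5:90903649-90903898) and Cxcl3 (chr5:90785851-90786100) are plus-strand neighbours on chromosome 5. Each held a run that matches the NF-kB consensus once on each strand, the second match offset by 1 base, beginning 71, 97 and 73 bases before the start. Krt13 (minus strand, chr11:100121567-100121816) and Krtdap (plus strand, chr7:30787655-30787904) held an AP-1 match 196 and 81 bases before the start. A match is a description of the letters and not evidence of binding.

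Matches also occurred outside the named genes. Of 9923 tested genes with an entry in the promoter table, 4.36% had an AP-1 match in the window, 4.58% an NF-kB match and 2.67% a cAMP response element. Of the 270 genes that were lower with TPA in the 4-library fit, 188 had an entry, 24 of them with an NF-kB match (12.8%) and 17 with an AP-1 match (9.04%). Of the 702 that were higher, 493 had an entry, 24 with an NF-kB match (4.87%) and 35 with an AP-1 match (7.10%). Among 20 cytokine and chemokine genes with an entry, 7 had an NF-kB match and 5 an AP-1 match, and among 14 NF-kB subunit and feedback genes 6 and 2 did. Of 11 AP-1 subunits with an entry, 3 had an NF-kB match and none an AP-1 match. Of 9 squamous genes 5 had an AP-1 match and 1 an NF-kB match, and of 5 adhesion genes 2 and none did. The contractile, elastic fibre and collagen lists had 1 AP-1 match each, among 18, 14 and 11 genes.

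Interleukin 6, which drives fever and the hepatic acute phase response, is encoded by Il6 on chromosome 5 from 30013114 to 30019975. Il6 was at 215 and 140 FPKM in the BAPN libraries, at 7.58 and 12.0 in the TPA libraries and at 0 and 0.1 in the normal libraries. The groups did not overlap, and both TPA libraries lay between the normal and the BAPN level. Il6 fell by 4.04 on the log2 scale (SE 0.345, limma adjusted p = 0.0324, n = 2 libraries a group), from a mean of 177 ± 53.1 (SD) to 9.81 ± 3.15 FPKM. Fewer cells that express a gene and less of its RNA per cell cannot be told apart in bulk tissue, here or below.

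Csf3 (chromosome 11, 98700183 to 98703631) encodes granulocyte colony-stimulating factor, which releases neutrophils from the bone marrow. Csf3 was at 54.2 and 38.6 FPKM with BAPN and at 0.13 and 0.94 with TPA, and both normal libraries listed it at 0. Both TPA libraries thus held less than 1 FPKM. Csf3 fell by 4.98 (SE 0.429, limma adjusted p = 0.0324), from 46.4 ± 11.0 to 0.535 ± 0.573 FPKM (mean ± SD, n = 2). Csf3 met the expression filter only through the BAPN libraries. Neither Il6 nor Csf3 passed after rescaling to TPM (limma adjusted p = 0.0892 for both), with haemoglobin left out of the sum (0.0839), with a replicate block over the 9 libraries (0.163), or with an offset of 0.1 in place of 1 (0.302 for Il6 and 0.376 for Csf3).

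Other cytokines and chemokines were lower as well, although their p-values missed the threshold in the 9-library fit. Of 29 tested members of the cytokine list, 2 fell (Il6 and Csf3) and none rose, and in the 4-library fit 10 were lower and none higher, where 2.08% of all tested genes were lower. Without overlap, 17 of the 29 members (58.6%) were lower in both TPA libraries, against 21.2% of all tested genes, and 1 was higher. Lif, Csf3 and Cxcl5 met the filter only through the BAPN libraries, where they were high. The list's median difference was -0.83, against 0.18 for all tested genes, and it stayed between -1.21 and -0.59 under the 4 other scalings. Another 4 members of the list, Il1a, Il11, Tnf and Csf2, were below the expression filter.

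The chemokines Cxcl1, Cxcl2 and Cxcl3 attract neutrophils. Cxcl1 was at 365 and 255 FPKM with BAPN and at 45.6 and 47.6 with TPA, a difference of -2.68 (SE 0.349, limma adjusted p = 0.132 in the 9-library fit and 0.0164 in the 4-library fit). Cxcl2 was at 98.5 and 68.8 against 5.75 and 10.8 (-3.22, adjusted p = 0.132 and 0.0199). Cxcl3 was at 35.8 and 22.04 against 1.16 and 1.96 (-3.53, adjusted p = 0.129 and 0.0163). Each of the 3 was lower in both TPA than in both BAPN libraries and still above its own level in both normal libraries.

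Monocyte and eosinophil attractants were lower too. Ccl2, the main ligand of the monocyte receptor CCR2, was at 203 and 97.4 FPKM with BAPN and at 18.5 and 19.3 with TPA (-2.83, SE 0.415, limma adjusted p = 0.195 in the 9-library fit and 0.0263 in the 4-library fit). The remaining members lower in the 4-library fit, named here after their values were seen, were Ccl7 (-2.70), the eosinophil attractant Ccl11 (-2.51), Cxcl5 (-2.25) and Ccl3 (-1.75). Il1b, which encodes a cytokine of activated myeloid cells, did not follow. Il1b was at 87.8 and 49.0 FPKM with BAPN and at 93.0 and 12.1 with TPA, so the groups overlapped (-0.93, SE 0.975, adjusted p = 0.738), and it too was chosen after its values were seen.

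**Figure D2:**
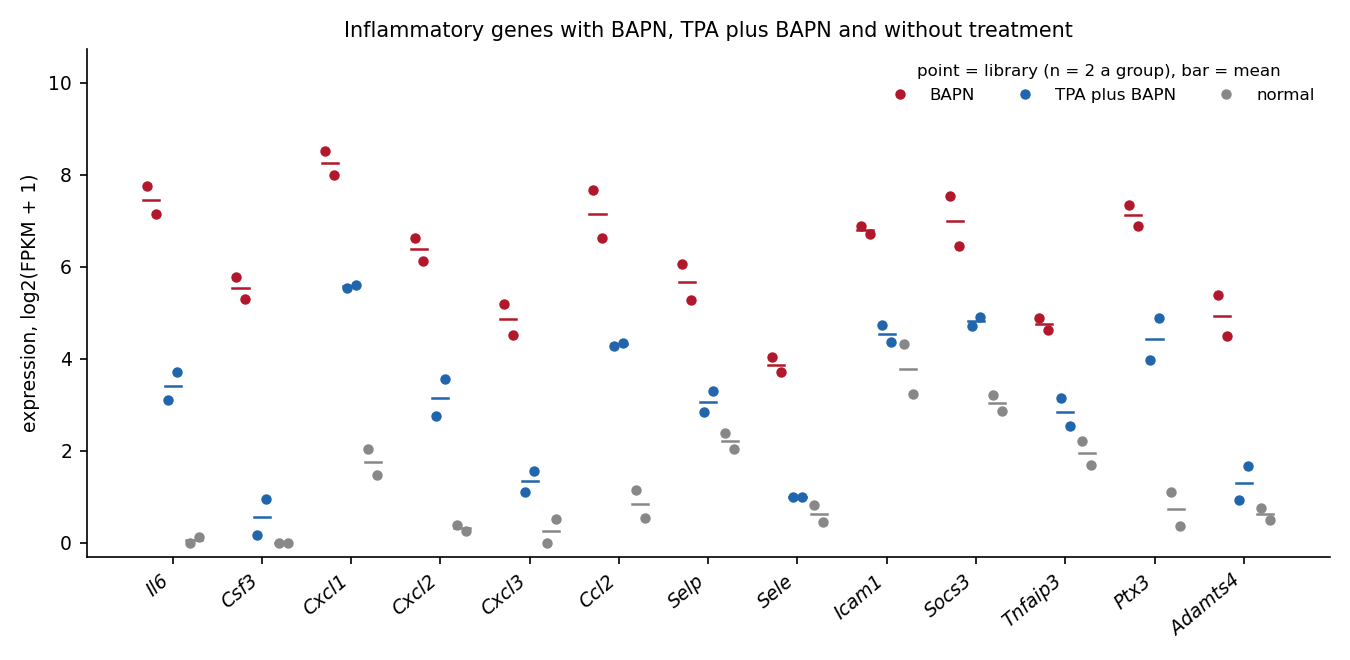
Expression in log2(FPKM + 1) (vertical axis) of 13 inflammatory genes (horizontal axis) in the 2 BAPN, 2 TPA plus BAPN and 2 normal libraries, with bars at the group means. The genes shown, with the protease gene Adamts4 among them, were taken from the lower side, so their common direction follows from that choice. Il1b, which overlapped, and Hp, Serpina3n and Reg3g, which were higher with TPA, are not shown. For each gene shown both TPA libraries lie below both BAPN libraries, with Il6 at 7.58 and 12.0 against 215 and 140 FPKM.

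The selectins that capture leukocytes on activated endothelium, and the integrin ligand Icam1, were lower in both TPA than in both BAPN libraries, and Sele met the filter only through the BAPN libraries. Sele, encoding E-selectin (chromosome 1, 164039614 to 164058487), was at 15.4 and 12.1 FPKM with BAPN and at 1.00 and 0.99 with TPA (-2.88, SE 0.418, limma adjusted p = 0.195 in the 9-library fit and 0.0132 in the 4-library fit). Selp, encoding P-selectin (chromosome 1, 164115264 to 164150026), was at 65.5 and 37.6 against 6.14 and 8.89 (-2.59, adjusted p = 0.169 and 0.0261). Icam1 was at 117 and 104 against 25.5 and 19.6 (-2.25, adjusted p = 0.277 and 0.0178). None of the 13 tested adhesion genes passed in the 9-library fit, and these 3 were the only ones to pass in the 4-library fit, where 2.08% of all genes were lower. The list's median was 0.04 as deposited, below the 0.18 of all genes, and it ran from -0.41 to 0.63 (without TPA replicate 2) when 1 of the 4 libraries was left out.

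Endothelial markers also lay on the lower side. Of 13 tested endothelial markers, 10 (76.9%, against 21.2% of all genes) were lower in both TPA libraries and 2 higher, with a median of -0.54, and none passed in the 9-library fit. Cldn5, the tight junction protein of endothelium, was at 282 and 188 FPKM with BAPN and at 32.5 and 59.7 with TPA (-2.36, SE 1.47, limma adjusted p = 0.587 in the 9-library fit and 0.0343 in the 4-library fit). Nos3, the endothelial nitric oxide synthase, was at 33.4 and 18.2 against 11.0 and 13.0 (-0.99, adjusted p = 0.485). The summed FPKM of the list was 1135 and 843 with BAPN, 486 and 574 with TPA and 843 and 658 in the normal libraries. The part of a lower endothelial share in the selectin values was not tested.

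Genes of the NF-kB pathway, both subunits and the feedback inhibitors that the pathway itself induces, lay on the lower side throughout. All 17 tested members had a negative difference, and 15 (88.2%, against 21.2% of all genes) were lower without overlap. None passed in the 9-library fit and 6 were lower in the 4-library fit, where 2.08% of all tested genes were lower. The list's median was -0.89, between -1.28 and -0.66 under the other scalings. Tnfaip3, the ubiquitin-editing inhibitor A20, was at 28.6 and 23.7 FPKM with BAPN and at 7.91 and 4.81 with TPA (-1.91, SE 0.358, limma adjusted p = 0.294 in the 9-library fit and 0.0303 in the 4-library fit). Nfkbia, the inhibitor IkBα, was at 221 and 176 against 70.1 and 69.2 (-1.49, adjusted p = 0.594 and 0.0296). Zc3h12a, an RNase that degrades Il6 mRNA, was at 20.3 and 15.4 against 5.02 and 4.83 (-1.66, adjusted p = 0.265 and 0.0273).

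Readouts downstream of IL-6 split. Socs3, the feedback inhibitor that IL-6 signalling induces, was at 186 and 86.3 FPKM with BAPN, 25.4 and 29.1 with TPA and 8.25 and 6.27 in normal aorta (-2.18, SE 0.400, limma adjusted p = 0.277 in the 9-library fit and 0.0426 in the 4-library fit). Il6ra, the ligand-binding receptor chain, was at 0.72 and 1.90 against 6.87 and 6.30 with TPA (1.76, adjusted p = 0.492 and 0.0412). Among 17 tested acute phase and innate defence genes, 10 (58.8%, against 41.4% of all genes) were higher without overlap and 3 lower, with a median of 0.77. Of the 17, 1 met the expression filter only through the TPA libraries, where it was high. Ptx3, a pentraxin made at sites of inflammation, was at 162 and 118 with BAPN and at 14.7 and 28.8 with TPA (-2.69, adjusted p = 0.429 and 0.0273).

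Acute phase genes on the higher side included Hp, encoding haptoglobin, at 51.3 and 32.0 FPKM with BAPN and at 323 and 651 with TPA (3.47, SE 1.00, limma adjusted p = 0.414 in the 9-library fit and 0.0229 in the 4-library fit). Serpina3n, a protease inhibitor, was at 41.6 and 51.0 against 155 and 398 (2.41, adjusted p = 0.442 and 0.0477). Reg3g, an antimicrobial lectin of mucosal epithelium, was at 3.37 and 0.96 against 624 and 484 and at 840 in normal replicate 1 (7.56, adjusted p = 0.445 and 0.00671). Hp and Serpina3n were at 512 and 25.4 in normal replicate 1 and at 53.1 and 5.12 in normal replicate 2. Reg3g is also on the airway epithelium list, which was high in the same 3 libraries and, to a lower level, in T-5224 replicate 2.

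None of the 12 AP-1 subunits, all tested, passed in either fit. The difference was below 0 for 10 of them, 5 (41.7%, against 21.2% of all genes) were lower without overlap and 2 (16.7%, against 41.4%) higher. Of the 12, 1 met the expression filter only through the BAPN libraries, where it was high. The median difference was -0.23, between -0.43 and -0.01 under the other scalings, and below the median of all genes under each of them. Fos, the immediate early subunit, was at 129 and 156 FPKM with BAPN and at 475 and 231 with TPA, a difference of 1.22 (SE 0.547, limma adjusted p = 0.499). Jun, its main partner, was at 94.8 and 109 against 186 and 126 (0.59, SE 0.410, adjusted p = 0.619). TPA replicate 1 held the highest value of both genes.

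Fosl1, a Fos family member of stimulated and migrating cells, lay on the other side. Fosl1 was at 21.4 and 6.05 FPKM with BAPN and at 0.69 and 2.22 with TPA (-2.43, SE 0.798, limma adjusted p = 0.438), without overlap. Atf3, a stress-induced partner, was at 131 and 119 against 79.4 and 48.0 (-1.0, adjusted p = 0.597). Fosl2 differed by -0.63, Batf by -0.87 and Jund by -0.29 without overlap, and Batf3 by -0.91 with overlap. Fosb (-0.03), Junb (-0.07), Atf2 (-0.04) and Jdp2 (-0.17) overlapped between the groups, and each of these 4 had a positive difference after rescaling to TPM.

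**Figure D3:**
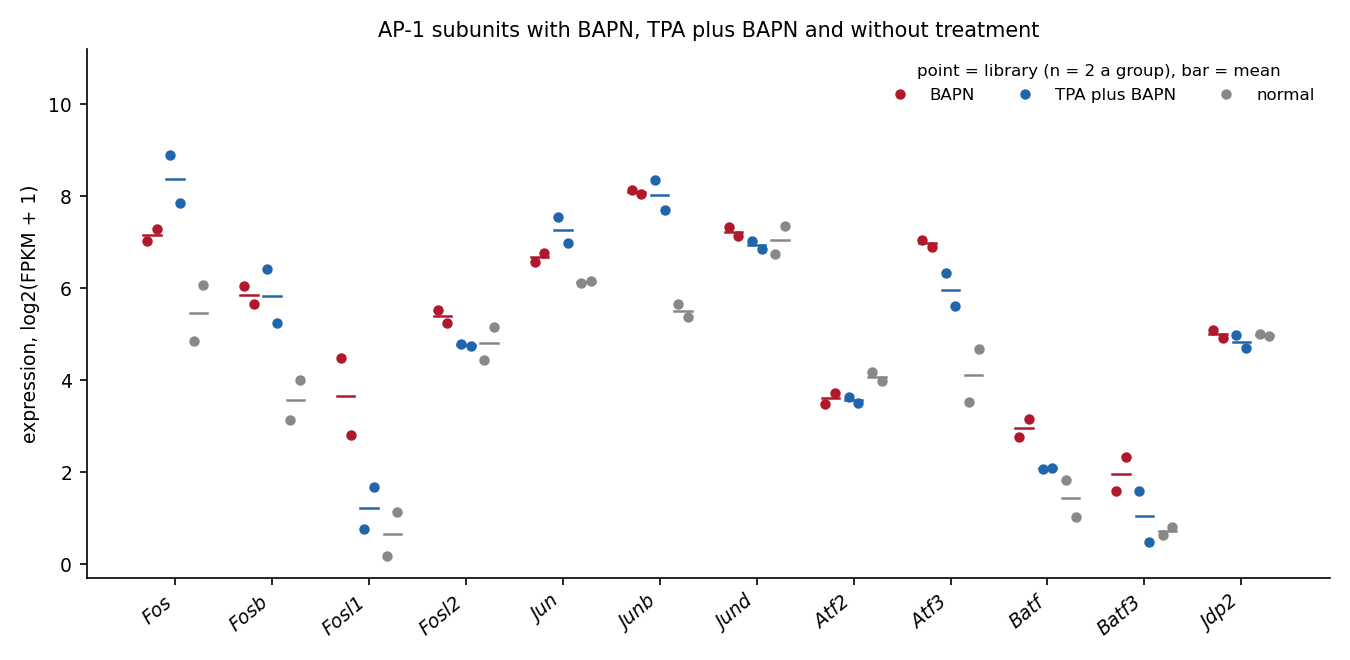
Expression in log2(FPKM + 1) (vertical axis) of the 12 AP-1 subunits (horizontal axis) in the 2 BAPN, 2 TPA plus BAPN and 2 normal libraries, with bars at the group means. Fos and Jun are the 2 subunits higher in both TPA libraries, and Fosl1 shows the largest difference of the family, -2.43.

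The direct binding proteins of TPA and genes that phorbol esters classically induce in culture gave few calls. Of 20 tested protein kinase C and other phorbol ester binding or substrate genes, none passed in the 9-library fit, and 2 (10%) were higher and 7 (35%) lower without overlap, against 41.4% and 21.2% of all genes, with a median of -0.39. Of the 20, 1 met the expression filter only through the BAPN libraries, where it was high. Chn1, encoding the Rac regulator α-chimaerin, was the 1 member lower in the 4-library fit, where 2.08% of all genes were lower. Chn1 was at 13.7 and 12.3 FPKM with BAPN and 3.87 and 5.75 with TPA (-1.28, SE 0.620, limma adjusted p = 0.516 in the 9-library fit and 0.0476 in the 4-library fit). The kinase substrates Marcks and Marcksl1 differed by -0.90 and -1.47 without overlap (adjusted p = 0.495 and 0.362). These values are RNA levels and say nothing of kinase activity.

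Of 21 tested phorbol ester and AP-1 targets, none passed in the 9-library fit, and the median was -0.36. Without overlap, 2 (9.52%) were higher and 7 (33.3%) lower, against 41.4% and 21.2% of all genes. Higher in the 4-library fit was 1 of the 21, and 2 were lower, against 5.40% and 2.08% of all genes. Sphk1, which makes the signalling lipid sphingosine 1-phosphate, was at 38.0 and 28.7 FPKM with BAPN and at 3.51 and 4.00 with TPA (-2.84, SE 0.437, limma adjusted p = 0.223 in the 9-library fit and 0.0132 in the 4-library fit). Plaur, the urokinase receptor, was at 107 and 73.1 against 17.2 and 21.9 (-2.13, adjusted p = 0.223 and 0.0253). Vegfa, the endothelial growth factor, was the member higher in the 4-library fit, at 12.2 and 15.2 against 38.8 and 34.9 (1.37, adjusted p = 0.542 and 0.0343). Of 22 immediate early genes outside AP-1, 9 (40.9%) were higher without overlap, near the 41.4% of all genes, and 7 (31.8%, against 21.2%) lower. Their median was 0.08, which ran from -0.13 to 0.34 with 1 library left out. Among them Klf2, a shear-responsive factor, was at 59.9 and 51.5 with BAPN and 142 and 122 with TPA (1.23, adjusted p = 0.438 and 0.0399), and Egr2 was at 4.62 and 4.79 against 17.8 and 9.84 (1.32, adjusted p = 0.415).

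Krt13, Mt4 and Krtdap were at or near 0 in both BAPN and both normal libraries. Krt13 (chromosome 11, 100117327 to 100121566) encodes a keratin of the suprabasal layers of internal stratified epithelia such as oesophagus. Krt13 was at 0.2 and 0.26 FPKM with BAPN and at 92.0 and 207 with TPA, and it rose by 6.82 (SE 0.438, limma adjusted p = 0.00953). Mt4 (chromosome 8, 94137204 to 94139031), the metallothionein of stratified squamous epithelium, was listed at 0 in both BAPN libraries and stood at 49.6 and 56.6 with TPA (adjusted p = 0.00953). Krtdap (chromosome 7, 30787905 to 30791089), a secreted protein of differentiating keratinocytes, was listed at 0 with BAPN and stood at 16.3 and 24.6 with TPA (adjusted p = 0.0347). The groups did not overlap for any of the 3 genes. All 3 met the expression filter only through the TPA libraries, and in genes at 0 elsewhere the offset bears on the spread. With an offset of 0.1 in place of 1 none of the 3 passed (limma adjusted p = 0.278 for Krt13, 0.373 for Mt4 and 0.376 for Krtdap). Among genes with a mean of at least 5 FPKM the adjusted p was 0.111 for Krt13 and 0.267 for Mt4, with Krtdap below that mean. Krtdap did not pass after rescaling to TPM (0.113), with haemoglobin left out (0.0720) or with a replicate block (0.167) either.

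Of 25 genes on the squamous epithelium list, 15 met the expression filter, and 7 of these (Krt13, Krt4, Krt14, Krtdap, Mt4, Trp63 and Sprr1a) did so only through the TPA libraries, so that no count of higher members is given. Krt5 and Krt14, the keratin pair of basal keratinocytes, were at 80.1 and 187 FPKM and at 19.8 and 54.8 with TPA, and no BAPN library exceeded 0.75 for either (limma adjusted p = 0.316 and 0.132 in the 9-library fit, 0.00924 and 0.0215 in the 4-library fit). Krt4, the partner of Krt13, was at 0.8 and 0 with BAPN and at 21.8 and 39.7 with TPA (adjusted p = 0.132 and 0.0164), and Lgals7, a galectin of stratified epithelia, at 2.76 and 1.85 against 72.7 and 197 (5.20, adjusted p = 0.246 and 0.0175). The cornified envelope gene Cnfn was listed at 0 with BAPN and stood at 6.59 and 9.27 with TPA (adjusted p = 0.132 and 0.0132). The summed FPKM of the list was 44.5 and 68.9 with BAPN, 507 and 786 with TPA and 199 and 85.2 in the normal libraries. Mt4, Krtdap, Krt15 and Calml3 were listed at 0 in both BAPN libraries. Of these, Mt4 and Krtdap met the filter only through the TPA libraries.

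Markers of other tissues outside the vessel wall were high in the same TPA libraries. Scgb1a1, the secretoglobin of airway club cells, was at 9.04 and 7.85 FPKM with BAPN, 8627 and 2436 with TPA, 9385 in normal replicate 1 and 16.3 in normal replicate 2. Bpifa1, secreted by the epithelium of upper airways, was at 1.94 and 4.09 with BAPN, 2397 and 1607 with TPA, 5719 in normal replicate 1 and 12.8 in normal replicate 2. Of 19 tested airway genes, 18 (94.7%, against 41.4% of all genes) were higher in both TPA libraries. In the 4-library fit 16 were higher, against 5.40% of all genes, and none passed in the 9-library fit. The list's summed FPKM was 519 and 475 with BAPN and 16952 and 8158 with TPA. In T-5224 replicates 1 and 2 it was 303 and 5344.

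The summed FPKM of the heart, muscle and fat lists was also higher in both TPA than in both BAPN libraries. Myh6, the atrial myosin heavy chain of the mouse heart, was at 0.11 and 0.16 FPKM with BAPN and at 262 and 37.5 with TPA, and Actc1, cardiac actin, at 1.99 and 7.74 against 557 and 338. The cardiac list summed to 259 and 102 with BAPN, 4954 and 2603 with TPA and 12866 and 62.9 in the normal libraries. The skeletal muscle list summed to 4518 and 2738 with BAPN, 11456 and 20867 with TPA and 5162 and 115 in the normal libraries. T-5224 replicate 2 held these 2 lists as well, at 2430 (cardiac) and 11534 (skeletal), against 52.6 and 175 in T-5224 replicate 1. Adipoq, the adipocyte hormone adiponectin, was at 5.94 and 13.4 with BAPN and at 140 and 129 with TPA, and 9 of 11 white adipocyte genes were higher in the 4-library fit, where 5.40% of all genes were. Msln, a mesothelial marker, was at 0.5 and 0 against 22.6 and 21.4. Normal replicate 1 held more than either TPA library of the cardiac, white adipocyte and mesothelial lists, and normal replicate 2 held less. The white adipocyte list summed to 22391 in normal replicate 1 against 5965 and 7836 with TPA, and the mesothelial list to 324 against 102 and 76.6. The part of airway, heart, muscle, fat or mesothelial tissue in the TPA libraries in any result here, the 3 squamous genes included, was not tested.

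**Figure D4:**
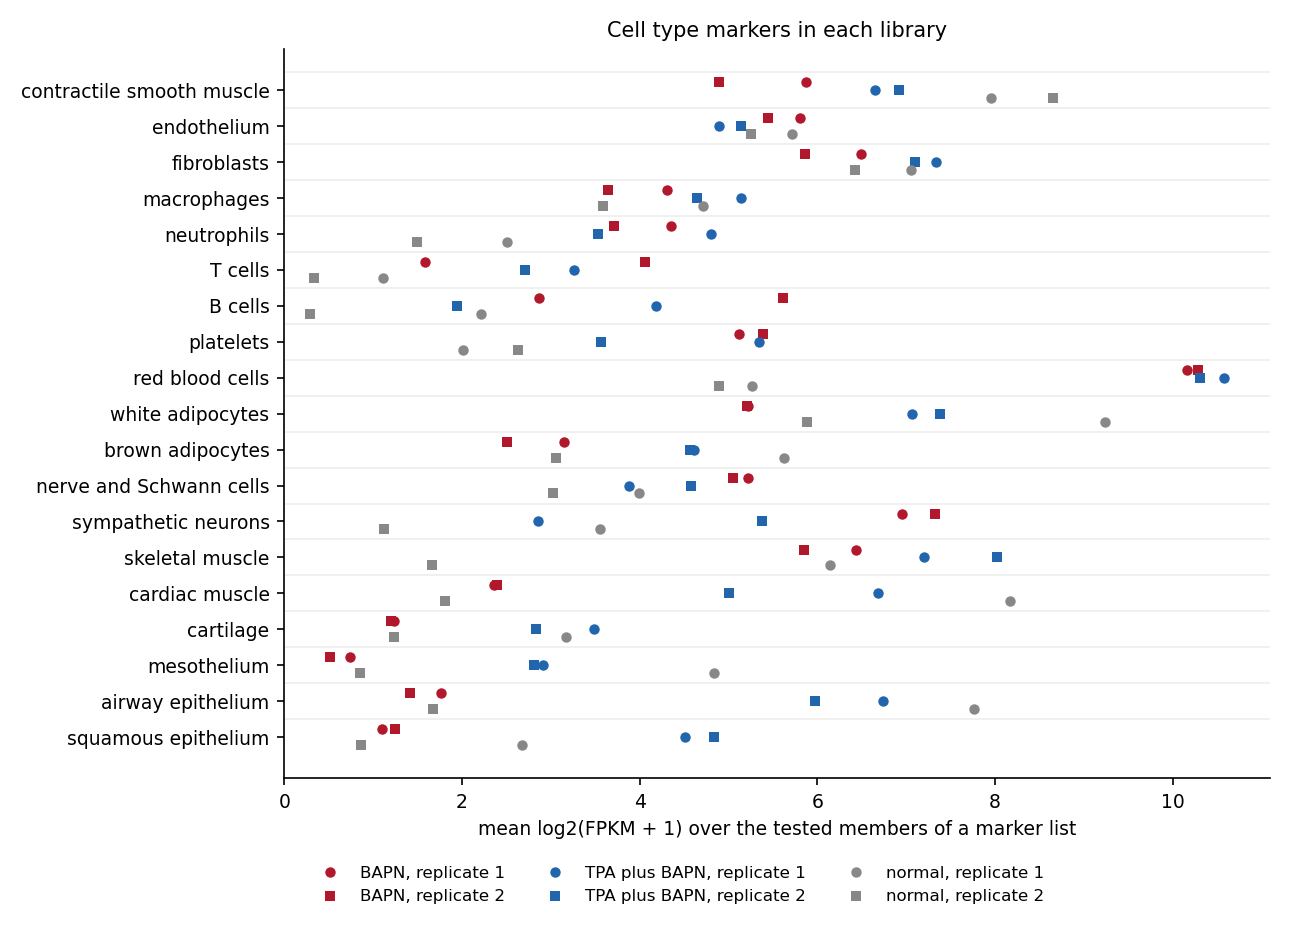
Mean log2(FPKM + 1) over the tested members of 19 marker lists (horizontal axis) in each of the 2 BAPN, 2 TPA plus BAPN and 2 normal libraries (colour, with circles for replicate 1 and squares for replicate 2). Airway, cardiac and mesothelial lists are high in both TPA libraries and low in both BAPN libraries. The sympathetic neuron list runs the other way, from 6.96 and 7.33 with BAPN to 2.86 and 5.38 with TPA. Of the 15 tested squamous genes, 7 met the expression filter only through the TPA libraries, so the height of that list there is partly set by the filter. Airway, cardiac and mesothelial lists are highest in normal replicate 1.

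Sympathetic neuron genes were the mirror image, being high in both BAPN libraries. All 12 members were lower in both TPA libraries, against 21.2% of all genes, with a median of -2.96. In the 4-library fit 4 were lower, against 2.08% of all genes, and none passed in the 9-library fit. Uchl1, an abundant neuronal deubiquitinase, was at 530 and 570 FPKM with BAPN, 58.3 and 140 with TPA and 85.0 and 66.9 in normal aorta (-2.59, SE 0.447, limma adjusted p = 0.265 in the 9-library fit and 0.0391 in the 4-library fit). Hand2, a transcription factor of sympathetic neurons, was at 79.4 and 105 against 8.67 and 23.95 (-2.57, adjusted p = 0.429 and 0.0453). Stmn2, a growth-associated microtubule protein, was at 194 and 256 against 21.2 and 42.1 (-2.86, adjusted p = 0.471 and 0.0256). Stmn4, of the same family, was at 36.3 and 31.9 against 3.25 and 4.75 (-2.82, adjusted p = 0.132 and 0.0151). TPA replicate 1 was the lower of the TPA libraries for all 4.

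Contractile, elastic fibre and collagen genes lay on the higher side with TPA, where 41.4% of all tested genes were higher without overlap. Endothelial markers lay on the lower side, as given above, and 5 of 16 modulated smooth muscle genes (31.2%) were higher without overlap. Of 23 contractile smooth muscle genes, 19 (82.6%) were higher without overlap and none lower, with a median of 1.40. Of 22 elastic fibre and cross-linking genes 21 (95.5%) were higher, with a median of 1.32. All 15 collagen genes were higher without overlap, with a median of 1.32. None of these passed in the 9-library fit, and 4, 4 and 3 of them passed in the 4-library fit, against 5.40% of all genes. The 3 medians lay between 1.12 and 1.60 under the other scalings and between 0.89 and 2.02 when 1 of the 4 libraries was left out.

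Tpm1, encoding α-tropomyosin, was at 586 and 343 FPKM with BAPN, 1694 and 2134 with TPA and 2349 and 1781 in normal aorta (2.08, SE 0.494, limma adjusted p = 0.341 in the 9-library fit and 0.0340 in the 4-library fit). Lmod1, an actin nucleator of smooth muscle, was at 10.5 and 3.92 with BAPN, 36.7 and 46.4 with TPA and 116 and 432 in normal aorta (2.49, adjusted p = 0.470 and 0.0406). Acta2 differed by 1.53 (adjusted p = 0.606) and Myh11 by 1.84 (adjusted p = 0.629 and 0.0391 in the 4-library fit), and both stayed below both normal libraries. Hspb6, a small heat shock protein of smooth and striated muscle, differed by 3.02 (adjusted p = 0.333). Tpm1 and Hspb6 are also expressed in heart and skeletal muscle, whose markers were higher in the same libraries.

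Eln, encoding tropoelastin, was at 453 and 114 FPKM with BAPN and at 2148 and 1237 with TPA (2.84, SE 2.02, limma adjusted p = 0.693 in the 9-library fit and 0.0698 in the 4-library fit). Loxl3, a lysyl oxidase family member, was at 4.38 and 2.52 against 18.01 and 14.9 (2.00, adjusted p = 0.527 and 0.0292). Efemp1, encoding fibulin-3, was at 10.8 and 9.36 against 32.6 and 40.9 (1.76, adjusted p = 0.485 and 0.0253). Col6a3, a chain of the microfibrillar collagen VI, was at 9.37 and 6.08 against 25.4 and 23.6 (1.57, adjusted p = 0.648 and 0.0380), and Col12a1 differed by 1.58 (adjusted p = 0.470). Of 13 fibroblast markers 12 (92.3%, against 41.4% of all genes) were higher without overlap, with a median of 1.00. Pdgfra, their defining receptor, was at 4.54 and 3.46 against 18.1 and 13.5 (1.74, limma adjusted p = 0.333 and 0.0296). Cartilage markers were higher without overlap in 10 of 10, against 41.4% of all genes. The part of fibroblasts and cartilage cells in the matrix values was not tested.

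None of the matrix proteases or TGF-beta response genes passed in the 9-library fit. Adamts4 (chromosome 1, 171250129 to 171262267), a protease that cleaves aggrecan and versican, was at 40.7 and 21.6 FPKM with BAPN, 0.92 and 2.18 with TPA and 0.7 and 0.42 in normal aorta (-3.64, SE 0.436, limma adjusted p = 0.132 in the 9-library fit and 0.0199 in the 4-library fit). Adamts4 met the filter only through the BAPN libraries. The 29 tested proteases and inhibitors had a median of 0.18, equal to that of all genes, with 12 (41.4%, the same share as of all genes) higher without overlap and 6 (20.7%) lower. Of 22 TGF-beta response genes 14 (63.6%, against 41.4% of all genes) were higher without overlap and 3 lower. In the 4-library fit 3 of the 22 were higher, against 5.40% of all genes. Their median was 0.55, above that of all genes under each scaling. Ltbp2, a matrix protein of the latent TGF-beta binding family, was at 6.99 and 6.12 against 61.0 and 35.6 (2.66, adjusted p = 0.526 and 0.0216), and Smad3, a signal transducer of the pathway, at 5.80 and 4.72 against 14.8 and 17.9 (1.47, adjusted p = 0.425 and 0.0321).

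**Figure D5:**
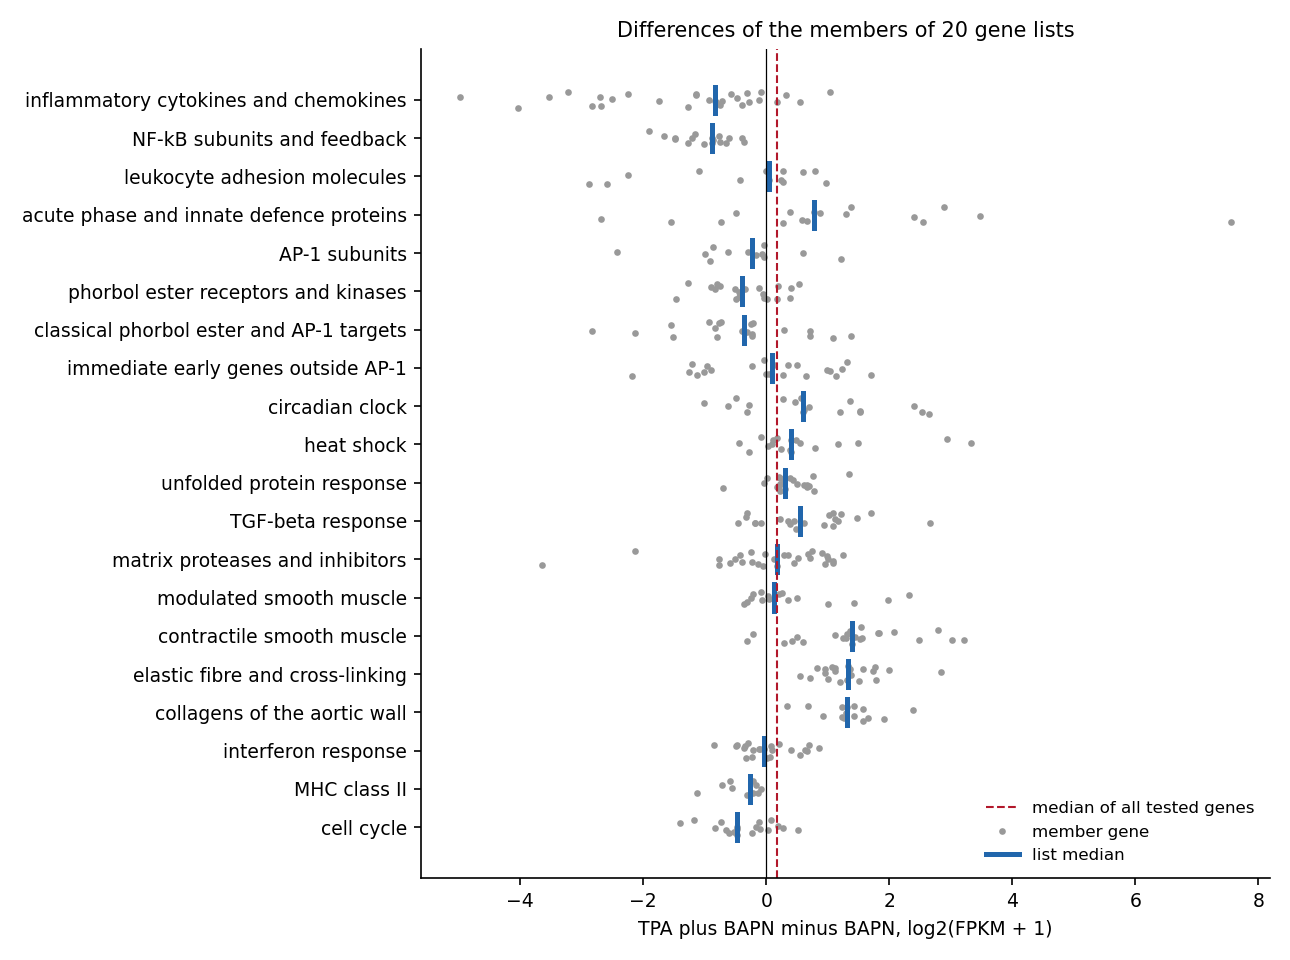
Difference, TPA plus BAPN minus BAPN in log2(FPKM + 1) (horizontal axis), of the tested members of 20 gene lists (rows), with 1 grey point a gene, a blue bar at the list's median and a dashed line at the median of all tested genes (0.18). The cytokine and NF-kB lists have medians of -0.83 and -0.89, and the contractile, elastic fibre and collagen lists of 1.40, 1.32 and 1.32.

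Leukocyte markers differed in direction from list to list, and none passed in the 9-library fit. Of 10 tested neutrophil genes, 1 was higher without overlap and 2 (20%, against 21.2% of all genes) lower, and the median was -0.27, from -1.09 (without TPA replicate 1) to 0.38 with 1 library left out. The 2 were S100a9, at 1010 and 616 FPKM with BAPN and 358 and 129 with TPA (-1.87, SE 0.542, limma adjusted p = 0.414), and its partner S100a8 (-1.73, adjusted p = 0.507), which together form calprotectin. Macrophage genes had a median of 0.88, from 0.46 to 1.29 with 1 library left out, with 6 of 14 (42.9%, against 41.4% of all genes) higher without overlap and 1 lower. T cell and class II genes overlapped between the groups in every case, with medians of 0.20 (-1.10 to 1.59 with 1 library left out) and -0.27 (-1.18 to 0.51), and all 10 class II genes had a difference below 0. B cell genes had a median of -0.98 (-2.18 to 0.17), with 6 of 8 below 0, and mast cell genes of -0.40 (-0.72 to -0.15), with 5 of 6 below 0. For the T cell, class II and B cell lists the lowest of these medians came without BAPN replicate 1 and the highest without BAPN replicate 2. BAPN replicate 2 held more lymphocyte RNA than the others, with B cell genes summing to 588 FPKM against 65.8 in BAPN replicate 1 and 188 and 28.9 with TPA, and Pax5, a B cell factor, was at 17.4 and 238 against 7.32 and 2.83 (-3.55, SE 1.10, adjusted p = 0.429).

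Stress and rhythm genes gave further differences. Hspa1b, a heat-inducible HSP70 chaperone on chromosome 17 from 34956429 to 34959238, was at 21.5 and 17.1 FPKM with BAPN, 212 and 194 with TPA and 56.2 and 186 in normal aorta (3.33, SE 0.547, limma adjusted p = 0.246 in the 9-library fit and 0.00978 in the 4-library fit). Hspa1a, a near-identical copy between which and Hspa1b reads may have been split, so that both values are uncertain, differed by 2.94 (adjusted p = 0.333 and 0.00986). Of 18 heat shock genes, 13 (72.2%, against 41.4% of all genes) were higher without overlap and 2 lower, with a median of 0.40. Herpud1, a factor of endoplasmic reticulum-associated degradation, was at 30.4 and 31.0 against 86.4 and 74.1 (1.35, adjusted p = 0.333 and 0.0307).

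Of 18 clock genes, 12 (66.7%, against 41.4% of all genes) were higher and 4 lower without overlap. In the 4-library fit 6, Per2, Per3, Dbp, Tef, Hlf and Nr1d2, were higher, against 5.40% of all genes. Tef, a PAR-domain factor under clock control, was at 12.5 and 12.8 FPKM with BAPN and 39.6 and 37.0 with TPA (1.52, SE 0.276, limma adjusted p = 0.277 in the 9-library fit and 0.0253 in the 4-library fit). Dbp, of the same family, was at 5.12 and 4.02 against 32.4 and 35.0 (2.64, adjusted p = 0.483 and 0.0132). Per2, a repressor of the clock loop, was at 2.96 and 2.68 against 21.6 and 20.5 (2.53, adjusted p = 0.474 and 0.0132). The sources used here do not state the time of day at which mice were killed.

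Genes named because their p-values were the smallest that missed the threshold included several outside the lists that were higher with TPA. Rbm24, a splicing factor of striated muscle, was at 1.21 and 1.43 FPKM with BAPN and 15.5 and 14.6 with TPA (2.79, SE 0.355, limma adjusted p = 0.132). Myom1, a protein of the sarcomere's M band, was at 19.8 and 6.36 against 77.8 and 106 (2.89, adjusted p = 0.306). Sim2, a transcription factor of the bHLH-PAS family, was listed at 0 with BAPN and stood at 14.3 and 29.1 with TPA (adjusted p = 0.273), and it met the filter only through the TPA libraries. Crhr2, the urocortin receptor, and Egf differed by 2.63 and 2.57 (adjusted p = 0.265 and 0.277).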

How the data were processed

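Per the labels' protocols, aortic RNA was isolated with Trizol and sequenced from TruSeq libraries. Each library has a table of FPKM by gene symbol, which the authors deposited, and the submitters' processing notes name build mm10. The sources used here do not state the aligner, the counting tool or the annotation. A symbol absent from a table was taken as 0, and depth per sample is unknown because FPKM carry no counts. The 9 tables held 17179 symbols, of which 16458 matched RefSeq on GRCm38.p6, which gave coordinates and promoter sequences.

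Genes with a mean of at least 1 FPKM over the 9 libraries were tested on log2(FPKM + 1) with limma 3.58.1 (R 4.3.3), with an intensity trend, 5 groups and 4 residual degrees of freedom, two-sided p-values and Benjamini-Hochberg adjustment over all tested genes at 0.05. On simulated data for this comparison over 12997 genes, the 9-library fit recovered 36 of 100 changes of 2 and 81 of 100 changes of 4 on the log2 scale, and 9 of its 126 calls were false. The simulation gave a gene the same normal spread in all 9 libraries and no differences among the other groups. These counts need not hold for the real libraries. Tables, sums and figures used python 3.11.15, pandas 2.3.3, numpy 2.4.6 and matplotlib 3.10.9. Alternatives were the offset, the filter, the 4 libraries alone, 4 scalings, no trend, a replicate block and leaving out each replicate.

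The 4 libraries were chosen by label. The comparison and the 52 gene lists (30 of functions, 22 of cell type markers) were chosen with earlier results of these data known. Named genes were the 15 largest rises and falls that passed without overlap, the 10 largest differences each way among the 50 smallest p-values that missed, clone-like symbols left out, the 6 members with the smallest p on every list, and the 12 AP-1 subunits, and the text gives a selection. Acta2, Myh11 and Eln are given outside this rule, as are the genes said in the text to be chosen after their values were seen. Lists not described in the text are given in the closing section as medians.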

Additional observations from a re-analysis of the deposited data

How the results depend on the processing

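Against 5 genes passing (3 rising, 2 falling), the count was 0 with an offset of 0.1 or of 0.01 FPKM and 0 among genes with a mean of at least 5 FPKM, where limma gave 1269, 1251 and 926 genes with an unadjusted p under 0.05. It was 9 without a filter (8 rising, 1 falling), 2 after rescaling to TPM and 2 with haemoglobin left out of the sum (2 rising, 0 falling in each, so that Il6, Csf3 and Krtdap were lost), and 14 after quantile normalization (6 rising, 8 falling, the same 5 genes among them). The 4 libraries alone gave 972. Leaving out 1 library gave 0 to 9. Setting aside both normal replicate 1 and T-5224 replicate 2, chosen after seeing the data, gave 1023, with the spread then left to the BAPN and TPA libraries. With the T-5224 libraries as separate groups, also added after seeing the data, 1 passed (1 rising, 0 falling). With a replicate block 2 genes passed over the 9 libraries (2 rising, 0 falling) and 500 over the 4. The labels share only numbers, and the deviations of same-numbered libraries correlated at -0.14. The crossed pairing, added after seeing the data, gave 1539. The causes of these changes were not tested.

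Directions turned for genes near 0. After rescaling to TPM and with haemoglobin left out, Fosb was at 0.19 and 0.09, Junb at 0.15 and 0.04 and Atf2 at 0.16 and 0.06, and Jdp2 was at 0.05 after TPM. With 1 library left out, Fosb ran from -0.61 to 0.56, Junb from -0.40 to 0.25, Atf2 from -0.17 to 0.08 and Il1b from -2.35 to 0.50. Without counts, precision near 0 FPKM is unknown.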

Other observations

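Of 16 tested complement genes, 13 (81.2%, against 41.4% of all tested genes) were higher with TPA without overlap and none lower, with a median of 0.91. Cfd, encoding adipsin, a complement protease that adipocytes secrete, was at 88.3 and 173 FPKM with BAPN and 1213 and 1515 with TPA (3.45, limma adjusted p = 0.507 in the 9-library fit and 0.0190 in the 4-library fit), and adipocyte markers were higher in the same libraries. Of 19 cell cycle genes 9 (47.4%, against 21.2% of all genes) were lower without overlap and 2 higher, with a median of -0.47. Birc5, encoding survivin, was at 13.1 and 18.6 with BAPN and 5.24 and 5.23 with TPA (-1.41, adjusted p = 0.538 and 0.0399). Srxn1, an NRF2 target that repairs oxidised peroxiredoxins, was at 89.4 and 45.7 against 19.4 and 22.5 (-1.57, adjusted p = 0.333), while the 20 antioxidant genes had a median of 0.12. Npy1r, the neuropeptide Y receptor of arterial smooth muscle, was at 1.06 and 1.81 with BAPN, 9.56 and 10.5 with TPA and 36.0 and 82.7 in normal aorta (2.20, adjusted p = 0.333 and 0.0206).

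The remaining lists are given by their median difference, to be read against 0.18 for all tested genes. Fatty acid oxidation (0.67), prostaglandin synthesis (0.58), nuclear oxidative phosphorylation (0.45), vascular tone receptors (0.42) and the unfolded protein response (0.30) lay above it. Keratinocyte growth signals (0.17), cytokine receptors (0.15), glucocorticoid-responsive genes (0.14), modulated smooth muscle (0.12), glycolysis and hypoxia (0.07), interferon response (-0.04) and red blood cells (-0.02) lay at or below it. Nerve and Schwann cells had -0.86 (-1.21 to -0.50 with 1 of the 4 libraries left out) and platelets -0.89 (-1.66 to 0.13, the highest without TPA replicate 2). Of the nerve and Schwann cell genes, 1 met the filter only through the BAPN libraries. Of the keratinocyte growth signals, 2 met it only through the TPA libraries. Brown adipocytes had 1.84, mesothelium 2.08, skeletal muscle 2.03, cardiac muscle 4.08, airway epithelium 4.18, cartilage 1.64, thyroid and parathyroid 1.35, thymocytes 0.86 and alveolar epithelium 0.34. No member of these lists passed in the 9-library fit.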
